A study of Mus musculus with 38 samples.

Results

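Immediate early transcription factors are nuclear proteins whose genes are read within minutes of a growth signal or a stress. The 10 genes described here were taken by name from the count tables of all 4 experiments, out of up to 57126 genes per table: Fos, Fosb and Fosl1 (FOS family), Jun and Junb (JUN family), Atf3, Egr1 and Egr2, Ier2 and Zfp36. Against the name of the group, Zfp36 encodes a protein that binds messenger RNA rather than DNA, and Ier2 a small nuclear regulator. All 10 were counted in all 38 mouse RNA-seq libraries, which fell into 10 groups. The series asks what exosomes, small vesicles that cells release, carry from insulin resistant fat tissue to triple-negative breast cancer.

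Each library carries the label of 4T1 cells, a mouse mammary adenocarcinoma line. In the brain clonogenic assay there were 5 libraries each of an insulin resistant (IR) group, an insulin sensitive (IS) group and a control labelled as given no treatment; clonogenic assays grow colonies from the tumour cells of a tissue. Primary tumours gave 5 IR and 4 control libraries. The labels of the brain and tumour samples give the group name and, for controls, no treatment, so strain, age and what defined IR or IS in them are not given in the sources used here. In culture, 4T1 cells received exosomes of IR or of IS 3T3-L1 adipocytes for 72 h, or no treatment (3 libraries each). 3T3-L1 cells are mouse fibroblasts that can be turned into adipocytes. A further culture set held 3 libraries titled miR-145a-3p and 2 titled scramble; the library names in their descriptions are the other way round (ScRNA for those titled miR-145a-3p and miR145 for those titled scramble), so the direction of that comparison depends on the titles. The labels call samples biological replicates without naming animals or cultures, so p-values measure the spread between these samples, which may in part be technical.

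FOS and JUN family proteins pair through a leucine zipper to form AP-1, which binds its own short DNA motif, and FOS proteins cannot form that complex without a partner. Growth factor signals reach Fos, Egr1 and Ier2 through the serum response factor SRF and its partners at CArG boxes and, for Fos, also through CREB at a cAMP response element (CRE). Their messengers are short-lived, in part because ZFP36, also known as tristetraprolin, binds AU-rich elements and speeds the decay of such messengers, its own included. ATF3 joins the same dimer network and is induced by many forms of stress.

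Promoter windows of 250 bases before to 50 after the start were found in RefSeq (GRCm38.p6) for 7 of the 10 genes. The windows of Fos and Zfp36 are shown because Zfp36 lay nearest to Fos over the brain libraries among the 7 other members at a mean of 10 CPM or more. Capitals mark a CRE core, TGACGT, at position -66 of the start and TATAAA at position -33 in Fos (chr12:85473640-85473939, plus strand), and a CArG box at position -58 and the EGR motif GCGNGGGCG at position -105 in Zfp36 (chr7:28379179-28379478, minus strand).
Fos: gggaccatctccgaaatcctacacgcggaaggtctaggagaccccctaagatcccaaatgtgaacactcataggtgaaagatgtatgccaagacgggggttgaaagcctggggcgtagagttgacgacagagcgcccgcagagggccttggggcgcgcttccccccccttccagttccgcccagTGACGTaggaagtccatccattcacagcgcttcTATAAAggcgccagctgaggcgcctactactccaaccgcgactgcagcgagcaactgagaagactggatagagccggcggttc
Zfp36: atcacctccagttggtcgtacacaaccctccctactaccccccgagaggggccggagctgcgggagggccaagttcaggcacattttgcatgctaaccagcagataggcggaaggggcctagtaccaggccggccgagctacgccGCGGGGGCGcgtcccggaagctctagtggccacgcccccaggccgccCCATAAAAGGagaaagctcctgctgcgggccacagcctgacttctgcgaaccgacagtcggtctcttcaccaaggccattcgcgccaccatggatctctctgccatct
On either strand, and with no overlap between the motifs marked, TGACGT occurred in 7.51% of all 32851 windows of this length, TATAAA in 13.6%, the CArG box in 1.63% and GCGNGGGCG in 5.55%. The full CRE TGACGTCA occurred in 1.79% and the AP-1 motif TGANTCA in 7.81%, and neither was found in the 7 genes' windows. The window of Fosb held the EGR motif at position -50 and that of Atf3 a TGACGT on the other strand at position -8. Of 5 windows of Egr2, 4 held a CArG box, and windows 3, 4 and 5 also held a TGACGT on the other strand. The window of Junb held TATAAA at position 1, and the window of Jun held none of the motifs searched. A match describes letters only, and no factor was measured on these promoters.

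Levels are in CPM, the count of a gene scaled to a common library size over the genes tested, after correction for library composition. The 4 tables were normalised apart, and a level in one is set beside a level in another without a test. Over the 10 groups, Fos was highest in the brain control at 67.4 ± 8.43 CPM (SD, n = 5). The brain IS group followed at 23.5 ± 3.46 CPM, the tumour IR group at 22.3 ± 7.82 CPM and the brain IR group at 21.9 ± 5.09 CPM (n = 5 each), and these neighbours overlapped in range. The titled scramble group was at 11.98 ± 2.36 CPM (n = 2), the tumour control at 11.8 ± 1.42 CPM (n = 4) and the titled miR-145a-3p group at 6.57 ± 0.967 CPM (n = 3). The 3 exosome culture groups were lowest, and their 9 libraries held only 9 to 20 Fos counts each. Fosl1, which encodes the FOS protein FRA1, ran nearly the other way: it was at 252 ± 18.6 CPM with IR exosomes, 246 ± 3.28 CPM with IS exosomes and 235 ± 1.97 CPM in untreated culture (n = 3 each), but at 21.1 ± 4.81, 16.5 ± 4.92 and 13.9 ± 1.67 CPM in the brain IR, IS and control groups. Of the other members, Egr2 was under 2 CPM in all 14 culture libraries, and in the 9 tumour libraries it ranged from 15.9 to 28.2 CPM.

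**Figure D1:**
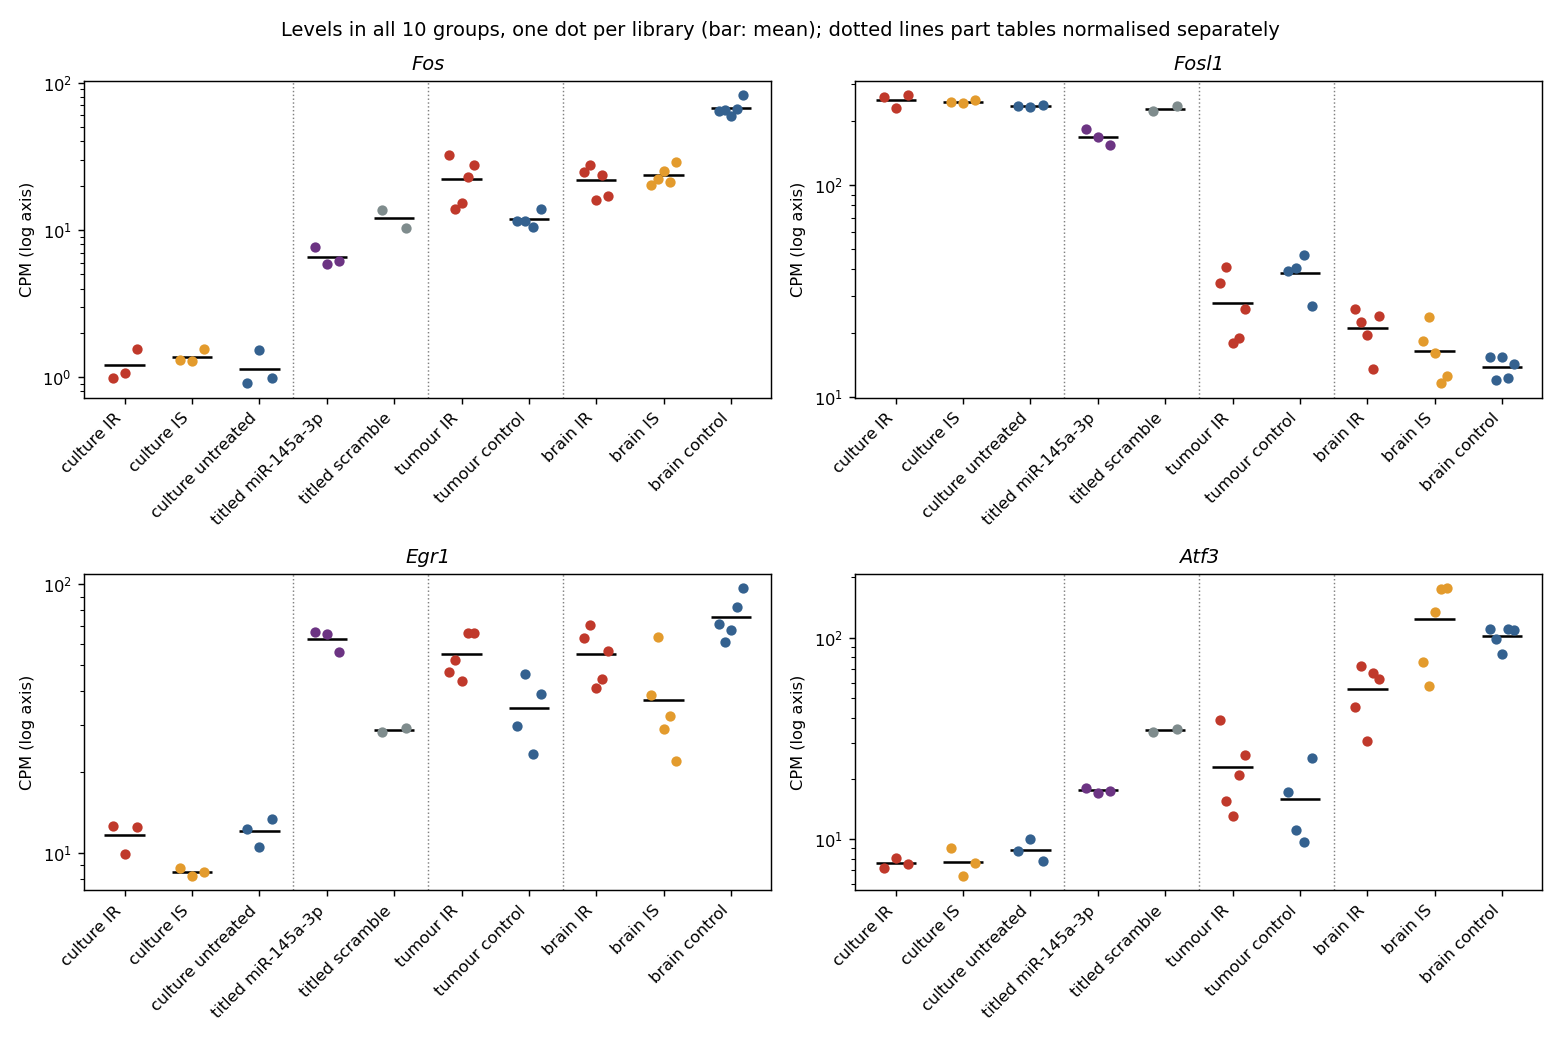
Level of Fos, Fosl1, Egr1 and Atf3 in each library of the 10 groups, in CPM on a log axis, with points for libraries and a bar for the group mean. Fos is near 1 CPM in exosome culture and highest in the brain control at 67.4 CPM, while Fosl1 is above 200 CPM in exosome culture and lowest in the brain control at 13.9 CPM.

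Total counts ran from 8455412 to 13272583 per library in the exosome culture and brain tables and from 17392887 to 32637552 in the tumour and miRNA tables. All 10 genes passed the filter (3 CPM in 3 libraries of the experiment) in the brain and tumour tables, 8 did so in exosome culture (not Fos and Egr2) and 9 in the miRNA set (not Egr2). Tests used edgeR's quasi-likelihood test with Benjamini-Hochberg adjustment over all genes tested, and a gene is called at an adjusted p of 0.05. Log2 fold changes carry their standard error (SE). In the brain libraries, the labelled tumour cell type was only weakly seen: 7 epithelial markers summed to 136 to 216 CPM in IR, 116 to 240 CPM in IS and 181 to 251 CPM in control libraries, against 2738 to 3681 CPM in exosome culture. Krt14 was at 0 in all IR and IS libraries, while Krt18 averaged 95.9 CPM in IR, 90.0 CPM in IS and 95.1 CPM in control libraries. Markers of fibroblasts (444 to 849 CPM in IR, 574 to 879 CPM in IS and 737 to 979 CPM in control libraries) exceeded them in every group.

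The largest falls of these genes over the 8 comparisons were in the brain libraries. Against the control, 6 of 10 were lower and 1 was higher in the IR group, while 4.57% of all 12924 genes were called lower and 6.22% higher (10.8% in all). Fos fell 3.09-fold, Zfp36 2.21-fold and Ier2 1.97-fold, Junb and Jun by less, and Egr2 also passed. The median log2 fold change of the 10 genes was -0.80, beside 0.00 over all genes tested. In 6 of the 10 genes every IR library was below every control library, and 11.8% of all genes were apart in either direction. In libraries of mixed cells, fewer cells of a type and less of a messenger per cell cannot be told apart.

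Among the AP-1 subunits, Fos was at 24.9, 27.8, 16.1, 23.5 and 17.0 CPM in the IR libraries, against 64.3, 65.4, 59.8, 65.8 and 81.9 CPM in the control libraries. The IR libraries all lay far below the lowest control library, and control 5 stood above the other controls (log2 -1.63 ± 0.14, edgeR adjusted p = 2.02e-05). Junb, the JUN protein that often restrains growth, was at 99.8, 89.0, 86.7, 81.7 and 107 CPM in IR, against 116, 124, 128, 139 and 143 CPM in control libraries (log2 -0.49 ± 0.09, edgeR adjusted p = 0.00353). All IR libraries were below all control libraries, with a smaller gap than for Fos. Jun, whose protein is the main partner of FOS, was at 107, 114, 96.5, 116 and 112 CPM in IR, against 143, 153, 146, 151 and 148 CPM in control libraries (log2 -0.44 ± 0.08, edgeR adjusted p = 0.00331). The control libraries hardly spread, and none came near an IR library. The calls of Fos, Jun, Junb, Ier2 and Zfp36 held in all 15 alternatives tried, with control 5, where Fos was highest, left out as well.

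Fosl1 was the member called higher: it was at 25.9, 22.5, 19.6, 13.5 and 24.0 CPM in IR, against 15.4, 11.98, 15.4, 12.2 and 14.3 CPM in control libraries. IR library 4 lay within the control range and the other IR libraries above it. The call sat at the threshold (log2 0.61 ± 0.19, edgeR adjusted p = 0.05), and over 15 alternatives the adjusted p ran from 0.0132 to 0.124 and missed it in 11, among them every single library left out except IR 4. Fosb, a FOS paralogue, was scarce at 1.38 to 2.94 CPM in IR and 2.54 to 5.10 CPM in control libraries, and did not pass (log2 -0.71 ± 0.32, edgeR adjusted p = 0.172).

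Outside AP-1, Zfp36 was at 26.2, 29.6, 24.5, 26.1 and 28.4 CPM in IR, against 49.6, 59.3, 57.1, 68.6 and 64.0 CPM in control libraries (log2 -1.15 ± 0.11, edgeR adjusted p = 6.13e-05). The IR libraries sat within a narrow band well under every control library. Ier2 was at 17.1, 16.5, 10.3, 10.3 and 17.0 CPM in IR, against 25.8, 26.1, 24.8, 30.8 and 32.6 CPM in control libraries (log2 -0.98 ± 0.16, edgeR adjusted p = 0.0017). The groups did not overlap. Egr2, a zinc finger factor best known from myelinating Schwann cells and hindbrain patterning, was at 3.59, 7.20, 3.10, 4.59 and 4.60 CPM in IR, against 10.7, 8.96, 6.71, 7.74 and 8.54 CPM in control libraries. IR library 2 reached above control library 3, and the rest were apart. Its fall (log2 -0.89 ± 0.26, edgeR adjusted p = 0.04) was lost in 9 of 15 alternatives, with adjusted p-values from 0.0134 to 0.105; leaving out any one of control 1, 2, 4 and 5 or IR 1, 3, 4 and 5 was enough. Egr1, a related factor often read as a sign of recent signalling, was at 62.9, 70.2, 41.1, 44.5 and 56.2 CPM in IR, against 71.1, 60.7, 67.4, 82.1 and 96.7 CPM in control libraries. Its groups overlapped and it did not pass (log2 -0.46 ± 0.24, edgeR adjusted p = 0.254).

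**Figure D2:**
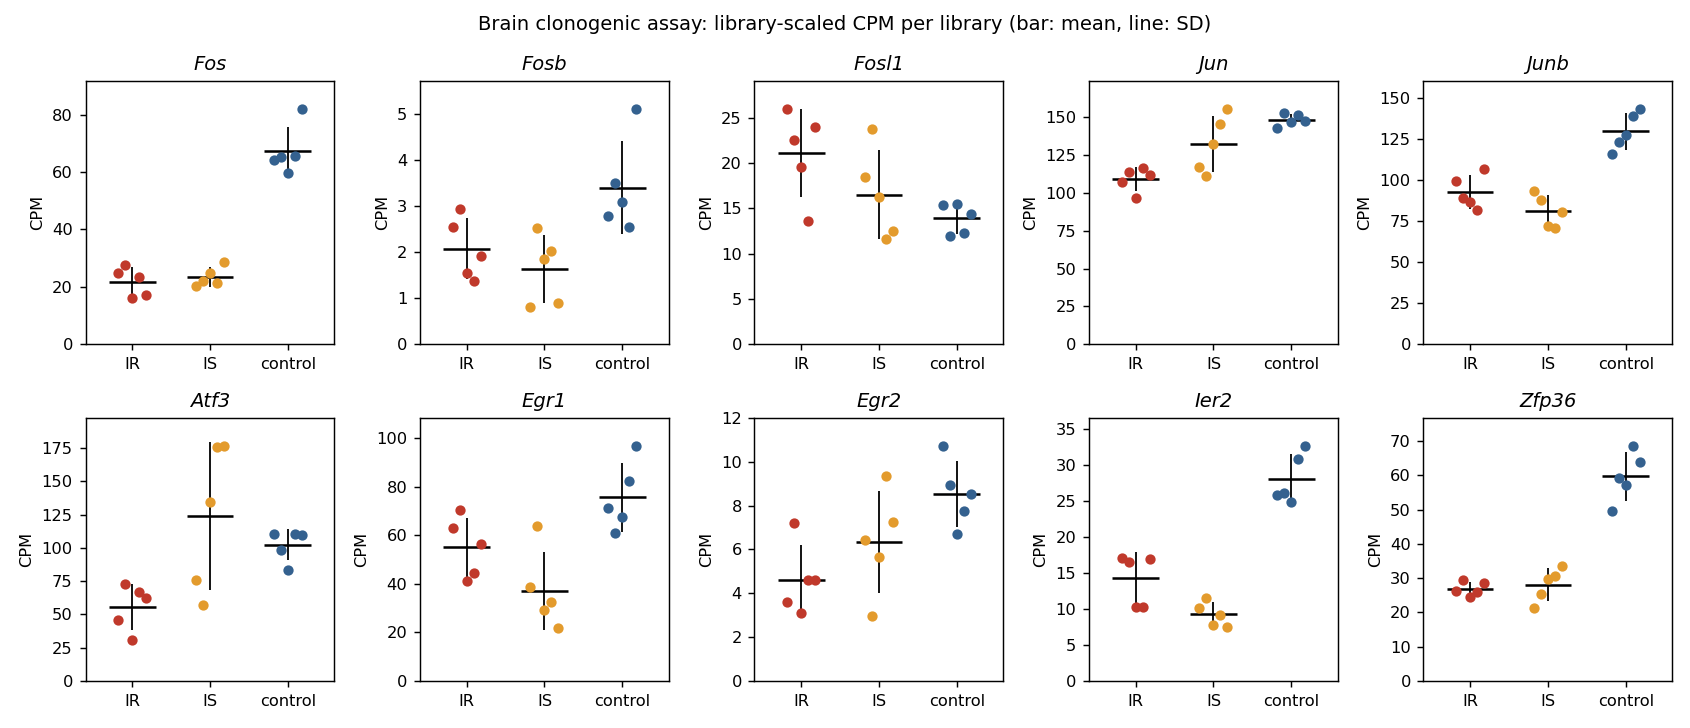
CPM of each of the 10 genes in the 15 brain clonogenic assay libraries, by group (IR, IS, control), with points for libraries, a bar for the group mean and a line for the SD. For Fos, Zfp36, Ier2 and Junb all IR and IS libraries lie below all control libraries, while Atf3 in the IS group runs from 57.4 to 177 CPM and spans the control range.

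The IS group was compared with the same 5 control libraries, so the 2 comparisons share their controls and their calls are not independent. In the IS group 5 of 10 genes were lower and 0 higher, with 3.02% of all genes called lower and 3.16% higher (6.18% in all). All IS libraries lay below all control libraries in 5 of the 10, and in 7.81% of all genes the groups were apart. The median of the 10 was -0.85 beside 0.00 over all genes. Fos was at 20.3, 22.1, 24.9, 21.2 and 28.8 CPM in IS libraries, all under every control library (log2 -1.52 ± 0.14, edgeR adjusted p = 3.1e-05, 2.87-fold lower). Ier2 was at 10.2, 11.6, 7.72, 9.15 and 7.54 CPM in IS libraries (log2 -1.60 ± 0.17, edgeR adjusted p = 5.13e-05). All IS libraries lay well below the control range, and Ier2 was 3.04-fold lower.

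Zfp36 was at 21.3, 25.4, 29.7, 30.5 and 33.5 CPM in IS libraries (log2 -1.09 ± 0.11, edgeR adjusted p = 5.13e-05), and Junb at 93.4, 87.9, 72.2, 70.6 and 80.9 CPM (log2 -0.68 ± 0.09, edgeR adjusted p = 0.000377). Both were below all control libraries. These 4 calls held in all 16 alternatives. Egr1 was at 38.8, 63.7, 29.0, 32.5 and 21.9 CPM in IS libraries, and only IS library 2 lay inside the control range of 60.7 to 96.7 CPM. Its fall (log2 -1.03 ± 0.25, edgeR adjusted p = 0.0258) was lost without any one of control 4, control 5, IS 3 and IS 4 and without the filter, with adjusted p-values up to 0.0649. Jun, Egr2, Fosl1 and Fosb were not called in the IS group. Jun was at 117, 111, 132, 145 and 155 CPM (log2 -0.17 ± 0.08, edgeR adjusted p = 0.262), with IS libraries 4 and 5 inside or above the control range. Fosb was at 0.815 to 2.52 CPM, below all control libraries, with an adjusted p of 0.0572 by edgeR and 0.0274 by DESeq2.

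Set directly against the IS group, the IR group showed 0 called genes among the 10 by edgeR, where 0.0464% of all genes were called (0.0232% higher and 0.0232% lower) and 2323 genes had an unadjusted p under 0.05. The groups were apart in 0 of the 10 and in 1.89% of all genes. DESeq2 called 3 of the 10. Ier2 had a log2 fold change of 0.63 (95% interval 0.30 to 0.96, edgeR adjusted p = 0.0928, DESeq2 adjusted p = 0.0229), Atf3 of -1.16 (-1.76 to -0.56, edgeR 0.0944, DESeq2 0.0157) and Jun of -0.28 (-0.44 to -0.11, edgeR 0.11, DESeq2 0.0451). IS library 2 bore on this comparison: without it edgeR called Jun, Egr1, Ier2 and Atf3, with adjusted p-values of 0.0137, 0.0137, 0.0198 and 0.00914. For Fos the interval of the difference was -0.39 to 0.18 and for Zfp36 -0.29 to 0.17 on the log2 scale.

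Atf3 did not follow Fos in the brain libraries. It was at 45.6, 72.7, 30.7, 66.7 and 62.3 CPM in IR and at 75.9, 57.4, 135, 175 and 177 CPM in IS libraries, against 110, 98.3, 83.1, 111 and 110 CPM in control libraries. All IR libraries were below all control libraries, yet the test did not pass (log2 -0.88 ± 0.31, edgeR adjusted p = 0.0834, DESeq2 adjusted p = 0.041). IS libraries 1 and 2 lay below the control range and IS libraries 3, 4 and 5 above it (log2 0.27 ± 0.30, edgeR adjusted p = 0.669). The summed level of 10 macrophage and microglia markers was 231, 387, 115, 349 and 317 CPM in IR, 395, 238, 691, 996 and 945 CPM in IS and 684, 638, 500, 681 and 648 CPM in control libraries. Ranked within the IR group, the 5 libraries stood in the same order by this sum as by Atf3, and within IS and within control 1 neighbouring pair changed places. Cd68 made up 64.7%, 61.9% and 60.3% of the sum in IR, IS and control libraries, while Aif1, Cx3cr1 and P2ry12 averaged under 1 CPM in all 3 groups. In the IS comparison 0 of 5 tested markers of this list were called, and in the IR comparison 1 of 5 was lower. Their part in the Atf3 values was not tested.

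For Fos, IR library 2 had the highest macrophage sum and the highest Fos of its group (387 and 27.8 CPM). IR library 3 had the lowest of both (115 and 16.1 CPM). In IS, libraries 4 and 5 had the highest macrophage sums, with 21.2 and 28.8 CPM of Fos, and library 5 had the highest Fos of its group. The 7 endothelial markers, which are genes of the vessel lining, moved with the groups: they summed to 754, 620, 764, 423 and 897 CPM in IR and to 367, 699, 273, 214 and 144 CPM in IS, against 111 to 153 CPM in control libraries. All 7 were called higher in IR and 3 in IS. IS library 5 had an endothelial sum inside the control range. Its Fos and Zfp36, at 28.8 and 33.5 CPM, were the highest of the IS group and below every control library. IS libraries 1 and 2, which had the highest endothelial sums, were left out of 1 fit after seeing the data. That fit called the same 5 genes of the 10 (Fos log2 -1.41, Zfp36 -0.91, Ier2 -1.77, Junb -0.78 and Egr1 -1.43). IS libraries 3 and 4 stayed above the control range of the endothelial sum, so the fit was no test of endothelial content. Pericyte and smooth muscle markers summed to 202 to 445 CPM in IR and 213 to 730 CPM in IS, against 426 to 624 CPM in control libraries. The 13 mitochondrially encoded genes, a sign of RNA quality, summed to 26405 to 38609 CPM in IR and 26282 to 37500 CPM in IS, against 19011 to 30140 CPM in control libraries, with 0 of 13 called in either comparison. The part of the macrophage, endothelial, pericyte and mitochondrial values in the results of these genes was not tested.

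**Figure D3:**
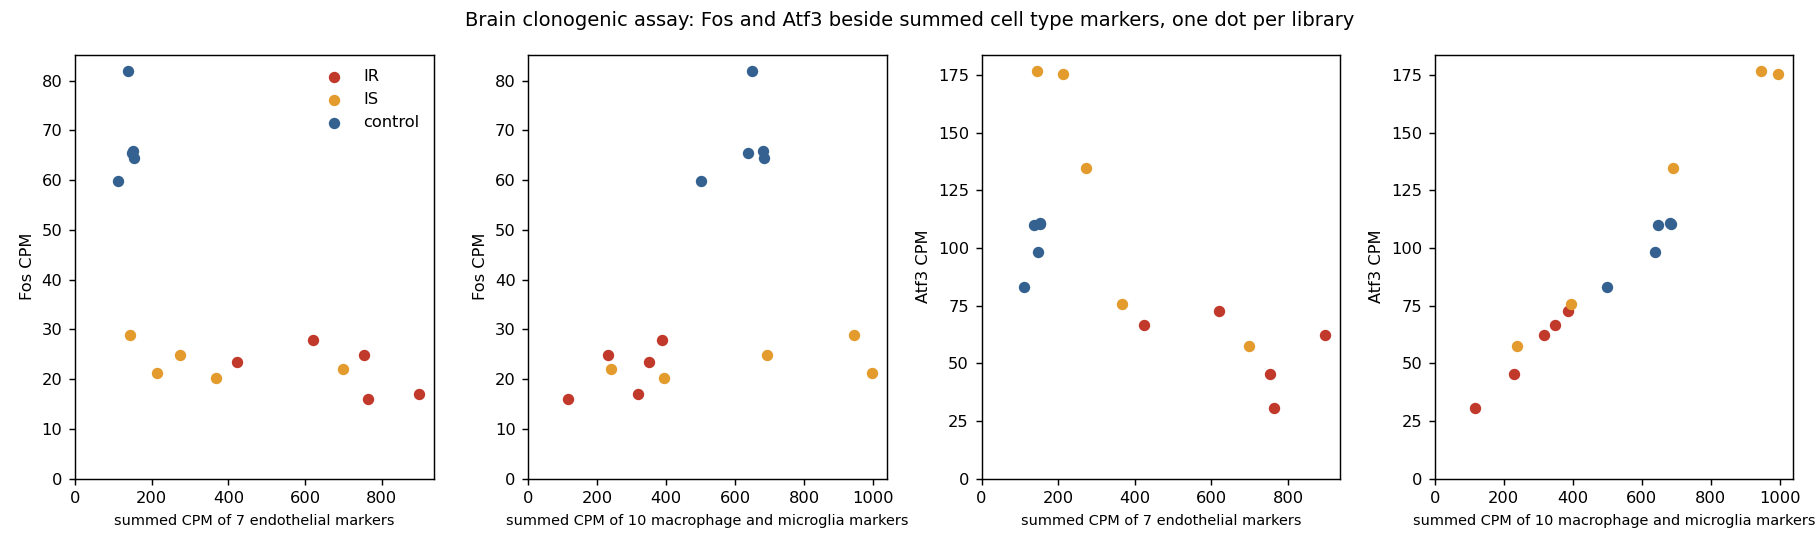
Fos and Atf3 CPM of the 15 brain libraries against the summed CPM of endothelial markers and of macrophage and microglia markers, 1 point per library, coloured by group (IR, IS, control). Fos is under 30 CPM in all 10 IR and IS libraries, while Atf3 is higher in libraries with a higher macrophage and microglia sum.

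Of 23 other immediate early and early response genes tested in the brain libraries, 4 were higher and 3 lower in IR (median log2 0.06), where 6.22% of all genes were called higher and 4.57% lower. Sik1, a kinase that acts on CREB coactivators, was at 40.1 ± 5.35 CPM in IR and 24.8 ± 2.36 CPM in control libraries (log2 0.69 ± 0.11, edgeR adjusted p = 0.00148). Ier3, a stress response gene linked to cell survival, was higher (log2 0.91 ± 0.18, edgeR adjusted p = 0.0059), and Gadd45b, which feeds stress kinase signalling, was lower (log2 -0.59 ± 0.12, edgeR adjusted p = 0.00535). In the IS group 1 of 23 was higher and 3 lower (median log2 -0.01), beside 3.16% and 3.02% of all genes. The lower ones included Arc, the activity gene of neurons, at 46.8 ± 10.4 CPM in IS and 88.7 ± 8.72 CPM in control libraries (log2 -0.92 ± 0.20, edgeR adjusted p = 0.0159), and Dusp1, a phosphatase that switches off MAP kinases (log2 -0.40 ± 0.09, edgeR adjusted p = 0.0133).

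Among 12 upstream factors, such as SRF, its partners and CREB, 1 was higher and 0 lower in IR (Elk3, an SRF partner, log2 0.48 ± 0.10, edgeR adjusted p = 0.00588). In IS, 1 was higher, the kinase gene Mapk3 (log2 0.28 ± 0.07, edgeR adjusted p = 0.0274). The medians were 0.12 in IR and -0.02 in IS. Of all genes, 6.22% were called higher and 4.57% lower in IR, and 3.16% and 3.02% in IS. Of 11 further AP-1 partners tested, 0 were called in IR and 1, Mafg, was higher in IS. SRF targets of the cytoskeleton gave 2 higher and 1 lower of 15 in IR and 0 higher and 1 lower in IS (medians -0.25 and -0.22). Ccn1, a secreted matrix protein, was the lower one in both, at 539 ± 68.6 CPM in IR and 435 ± 22.1 CPM in IS, against 668 ± 35.2 CPM in control libraries (edgeR adjusted p = 0.0222 and 0.000261). Of 7 tested messengers with AU-rich elements, the kind ZFP36 binds, 1 was higher in IR, which was Ier3, and 0 were called in IS (medians 0.50 and 0.08). Between IR and IS, 0 genes of these 5 lists were called, beside 0.0464% of all genes.

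The genes whose pattern over the 15 brain libraries was nearest to that of Fos, by root mean square distance of log2 CPM after centring, were Lox, Zfp36, Erfe, Loxl2, Enho and Thbs1, of 9598 ranked. Fos itself varied by an SD of 0.81 on that scale, and the distances ran from 0.277 for Lox to 0.380 for Thbs1. Lox, an enzyme that crosslinks collagen, was at 344 ± 96.8 CPM in IR and 330 ± 40.6 CPM in IS, against 910 ± 79.0 CPM in control libraries (n = 5 each). Zfp36 was at rank 2, Ier2 at 23, Junb at 104, Jun at 278 and Egr1 at 291, while Atf3 was at 4934 and Fosl1 at 9206. The ranks describe likeness over libraries that share the 3 groups.

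In the primary tumours, 0 of the 10 genes were called between IR and control, as were 0% of all 12962 genes by edgeR. At an unadjusted p under 0.05 there were 950 genes, and DESeq2 called 124, with 0 of the 10 among them. The median log2 fold change of the 10 was 0.24, beside 0.01 over all genes. Fos was at 32.1, 13.8, 15.3, 22.8 and 27.5 CPM in the IR tumours, against 11.5, 11.4, 10.4 and 13.8 CPM in the control tumours. The lowest IR tumour lay a hair above the highest control tumour (log2 0.92 ± 0.25, edgeR adjusted p = 0.456, DESeq2 adjusted p = 0.0636), and 2.41% of all genes were apart in either direction. Egr1 was at 47.3, 52.3, 43.6, 65.6 and 65.7 CPM in IR, against 29.7, 46.4, 23.3 and 39.04 CPM in control tumours, with IR tumour 3 below control tumour 2 (log2 0.67 ± 0.21, edgeR adjusted p = 0.487). Atf3 was at 39.2, 15.5, 13.04, 20.9 and 26.1 CPM in IR, against 17.3, 11.1, 9.74 and 25.3 CPM in control tumours, and the groups overlapped widely (log2 0.53 ± 0.36, edgeR adjusted p = 0.837).

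The other members overlapped between the tumour groups as well. Junb was the most abundant in counts at 314 to 450 CPM in IR, against 253 to 439 CPM in control tumours. Jun was at 229 CPM in IR tumour 1 and at 127 to 145 CPM in the other IR tumours, against 131 to 187 CPM in control tumours. IR tumour 1 also had the highest Fos, Fosb, Jun and Atf3 of its group. Fosl1 had the lowest estimate (log2 -0.47 ± 0.26, edgeR adjusted p = 0.771). None of the 5 related lists held a called gene. Tissue makeup differed between tumours: 5 skeletal muscle markers summed to 10276 CPM in IR tumour 4 and 1536 CPM in IR tumour 5, and fibroblast markers to 6133 to 12128 CPM in IR, against 3521 to 6615 CPM in control tumours. Without IR tumours 4 and 5, Fos had a log2 fold change of 0.79 (edgeR adjusted p = 0.293). Without control 2 and IR 2, which had the highest lymphocyte sums and, like the pair before, were left out after seeing the data, it was 1.04 (edgeR adjusted p = 0.326). The part of fibroblast content was not tested. Nearest to Fos over the 9 tumours were Ddit4, Jup, Amz1, Il1b and Dusp1 of 10077 genes ranked (distances 0.220 to 0.302, Fos SD 0.59). Ddit4, a stress-induced inhibitor of the mTOR kinase, was at 264 ± 77.4 CPM in IR (n = 5) and 168 ± 24.8 CPM in control tumours (n = 4). Member ranks differed from those in the brain: Atf3 was at 36, Junb at 43, Egr1 at 109, Ier2 at 331 and Jun at 729. Egr2 was at 6292, Zfp36 at 7274 and Fosl1 at 9620.

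In exosome culture, 1 of the 8 genes tested was lower with exosomes of IR adipocytes and 5 were lower with exosomes of IS adipocytes, and 0 were higher with either. Called lower were 7.54% of all 10888 genes with IR and 10.1% with IS exosomes, and called higher were 7.31% with IR and 10.7% with IS exosomes (14.9% and 20.8% in both directions). All IR libraries lay below all untreated ones in 4 of the 8, and 30.2% of all genes were apart. With IS exosomes 6 of the 8 lay below and 1 above, where 36.8% of all genes were apart. The changes were small, 1.53-fold at most. The 2 comparisons share the 3 untreated libraries. The medians of the 8 were -0.09 with IR and -0.25 with IS exosomes, beside 0.00 over all genes in both.

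Zfp36 was at 13.6, 11.1 and 11.3 CPM with IR exosomes and 11.4, 10.4 and 8.62 CPM with IS exosomes, against 17.4, 14.6 and 14.3 CPM untreated. All 6 exosome libraries were below all 3 untreated ones. Zfp36 passed with IS exosomes (log2 -0.61 ± 0.13, edgeR adjusted p = 0.00106) and not with IR exosomes (log2 -0.37 ± 0.13, edgeR adjusted p = 0.0522). Junb was at 255, 259 and 247 CPM with IR exosomes and 220, 226 and 232 CPM with IS exosomes, against 264, 271 and 256 CPM untreated. All IS libraries were below all IR and all untreated ones, while IR and untreated libraries overlapped. Junb fell with IS exosomes (log2 -0.22 ± 0.04, edgeR adjusted p = 5.97e-05) and was higher with IR than with IS exosomes (log2 0.17 ± 0.04, edgeR adjusted p = 0.00484), a call that held in all 11 alternatives.

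Egr1 was at 12.6, 9.91 and 12.5 CPM with IR exosomes and 8.77, 8.22 and 8.46 CPM with IS exosomes, against 12.2, 10.6 and 13.3 CPM untreated. The IS libraries were the lowest 3 of the 9 and the IR libraries mixed with the untreated. Egr1 was lower with IS exosomes than untreated (log2 -0.51 ± 0.14, edgeR adjusted p = 0.00807), with an adjusted p of 0.0637 without untreated library 3. It was higher with IR than with IS exosomes (log2 0.45 ± 0.14, edgeR adjusted p = 0.0384), a call lost in 6 of 11 alternatives. These 2 were the called genes of the 8 between IR and IS exosomes, where 8.14% of all genes were called (3.82% higher and 4.32% lower). In 3 of the 8 all IR libraries lay above all IS libraries, and 26.6% of all genes were apart. Ier2 was at 54.4, 45.2 and 51.1 CPM with IS exosomes, against 60.6, 58.1 and 64.5 CPM untreated (log2 -0.28 ± 0.07, edgeR adjusted p = 0.00251). Jun passed narrowly with IS exosomes (log2 -0.11 ± 0.04, edgeR adjusted p = 0.0485) and was lost in 9 of 11 alternatives. Fosb was the gene called with IR exosomes, at 10.0, 8.94 and 10.1 CPM, against 13.5, 12.99 and 11.6 CPM untreated (log2 -0.39 ± 0.13, edgeR adjusted p = 0.0385). That call was lost in 7 of 11 alternatives, with adjusted p-values from 0.0395 to 0.14. Fosl1 and Atf3 were called in none of the 3 comparisons. Egr2, which failed the filter, was at 1.01 to 1.59 CPM with IR exosomes and 0.731 to 1.24 CPM with IS exosomes, against 0.358 to 0.910 CPM untreated. The IR libraries lay just above the untreated ones, at 4 to 18 counts a library, and the difference was not tested. Mitochondrially encoded genes summed to 926 to 5308 CPM with IR exosomes (926 in library 2) and 4344 to 6283 CPM with IS exosomes, against 2778 to 5919 CPM untreated, with 0 of 13 called, and their part was not tested.

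**Figure D4:**
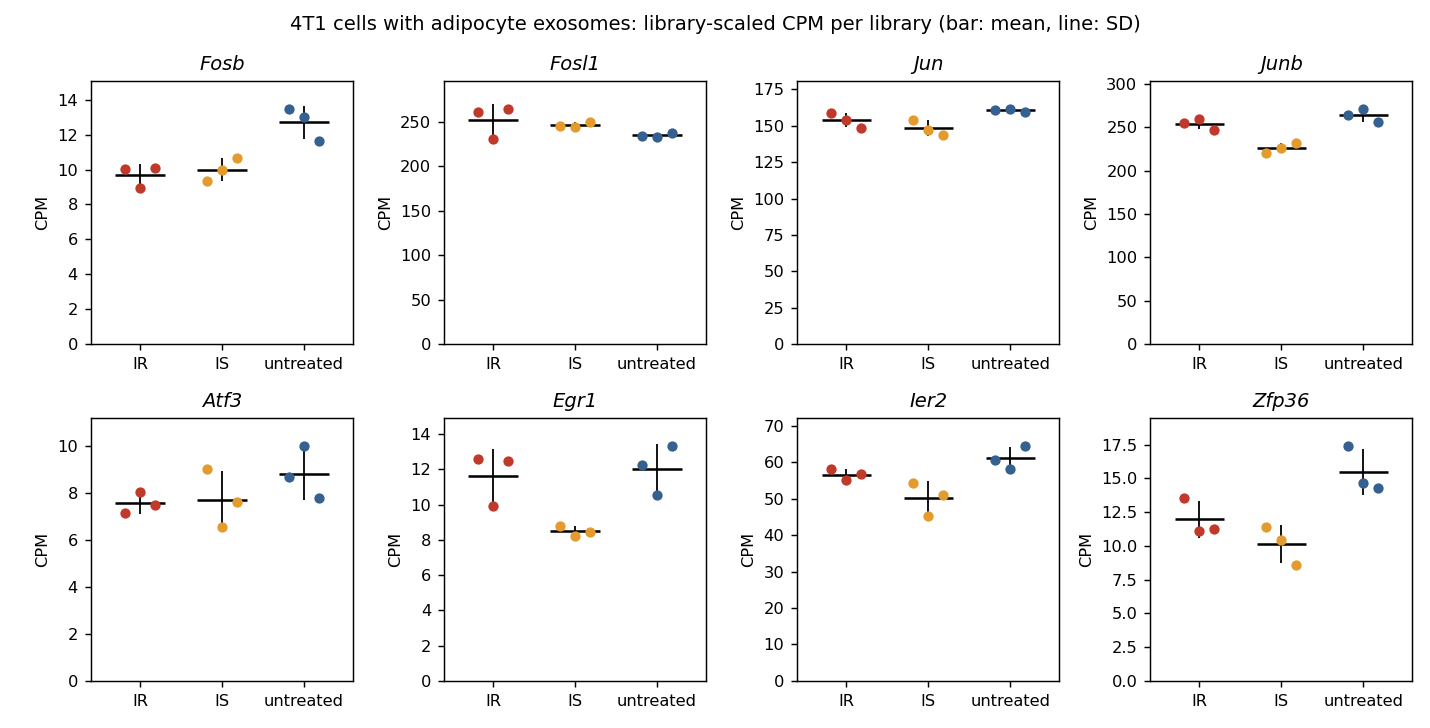
CPM of the 8 genes tested in the 9 exosome culture libraries, by group (IR, IS, untreated), with points for libraries, a bar for the group mean and a line for the SD. Junb with IS exosomes (220 to 232 CPM) lies below both other groups, and all 6 exosome libraries lie below the untreated ones for Zfp36.

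Of the SRF targets of the cytoskeleton tested in culture, 7 of 10 were lower and 0 higher with IR exosomes, and 8 of 10 lower and 0 higher with IS exosomes (medians -0.21 and -0.19). Of all genes, 7.54% were called lower with IR and 10.1% with IS exosomes, and 7.31% and 10.7% higher. Ccn2, a matrix-associated growth regulator, averaged 105 ± 7.83 CPM after IR exosomes, against 201 ± 9.46 CPM in untreated cells (log2 -0.94 ± 0.05, edgeR adjusted p = 1.07e-11). It was also lower with IR than with IS exosomes (log2 -0.66 ± 0.05, edgeR adjusted p = 8.26e-08). Between these 2 exosome groups 2 of the 10 were lower with IR, beside 4.32% of all genes. Srf itself was slightly lower with IR exosomes (log2 -0.16 ± 0.05, edgeR adjusted p = 0.018), and of the 12 upstream factors 1 was higher and 1 lower with IR and 1 higher and 0 lower with IS exosomes.

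Of 7 tested messengers with AU-rich elements, 4 were higher and 1 lower with each kind of exosome (medians 0.23 with IR and 0.42 with IS). Of all genes, 7.31% were called higher and 7.54% lower with IR, and 10.7% and 10.1% with IS exosomes. Cxcl1, a neutrophil chemokine, averaged 116 ± 5.29 CPM after IR exosomes, 107 ± 4.40 CPM after IS exosomes and 9.52 ± 2.09 CPM in untreated cells (SD, n = 3 each, edgeR adjusted p = 2.34e-20 and 6.78e-20). Of 21 other immediate early and early response genes, 4 were higher and 3 lower with each kind. Gadd45b averaged 32.96 ± 1.94 CPM after IR exosomes, 43.6 ± 2.10 CPM after IS exosomes and 58.4 ± 4.15 CPM in untreated cells, and was also lower with IR than with IS exosomes (log2 -0.41 ± 0.07, edgeR adjusted p = 0.000521). Among 11 AP-1 partners, 2 were lower and 0 higher with IR exosomes and 1 was higher and 0 lower with IS exosomes. Jdp2, a repressor that pairs with JUN proteins, and Fosl2 were the lower ones (log2 -0.45 ± 0.09 and -0.16 ± 0.04, edgeR adjusted p = 0.000586 and 0.00893), and Nab1, a corepressor of EGR factors, the higher one (log2 0.14 ± 0.05, edgeR adjusted p = 0.029). Between IR and IS exosomes, 0 were higher in any list, while 1 early response gene, 2 AP-1 partners and 1 messenger with AU-rich elements were lower with IR. In that comparison 3.82% of all genes were called higher and 4.32% lower.

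Between the libraries titled miR-145a-3p and titled scramble, 2 of 9 genes were called higher and 6 lower, where 28.1% of all 10751 genes were called higher and 28.9% lower. Because 56.9% of all genes were called, a call here sets no gene apart. Egr1 was at 66.5, 65.0 and 56.1 CPM in libraries titled miR-145a-3p, against 28.2 and 29.1 CPM in those titled scramble, which were far below (log2 1.13 ± 0.09, edgeR adjusted p = 3.64e-05). Jun was also higher (log2 0.28 ± 0.06, edgeR adjusted p = 0.00342). The 3 FOS genes went the other way. Fosb was at 24.3, 22.7 and 22.4 CPM, against 40.1 and 51.5 CPM (log2 -0.98 ± 0.11, edgeR adjusted p = 0.000105). Fos was at 7.67, 5.85 and 6.19 CPM, against 13.6 and 10.3 CPM (log2 -0.87 ± 0.17, edgeR adjusted p = 0.00205). Fosl1 was lower by less (log2 -0.44 ± 0.07, edgeR adjusted p = 0.00088). In all 3 the libraries titled miR-145a-3p were below those titled scramble.

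Atf3 was at 18.05, 17.0 and 17.4 CPM in libraries titled miR-145a-3p, against 34.1 and 35.4 CPM in those titled scramble (log2 -0.99 ± 0.08, edgeR adjusted p = 3.21e-05). Zfp36 was at 16.8, 17.0 and 17.3 CPM, against 27.0 and 30.4 CPM (log2 -0.75 ± 0.09, edgeR adjusted p = 0.000136). Both pairs of groups were tightly spread and apart, as 73.0% of all genes were. Junb passed narrowly (log2 -0.19 ± 0.06, edgeR adjusted p = 0.0218), a call lost in 4 of 10 alternatives, and Ier2 did not (log2 0.22 ± 0.08, edgeR adjusted p = 0.0506). The median of the 9 was -0.44, beside -0.01 over all genes. Mitochondrially encoded genes summed to 16190 to 18845 CPM in libraries titled miR-145a-3p, against 85897 to 136138 CPM in those titled scramble, with 12 of 13 called lower. When they were left out of the fit, 9 of the 9 genes were called.

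Of the 12 upstream factors, 9 were higher and 1 lower in libraries titled miR-145a-3p (median 0.29), and the lower one was the SRF partner Elk4 (log2 -0.89 ± 0.07, edgeR adjusted p = 3.72e-05). SRF targets of the cytoskeleton had 6 of 10 higher and 1 lower (median 0.29), and AP-1 partners 4 of 11 higher and 2 lower (median 0.15), with Ddit3, the stress factor CHOP, at 7.18 ± 0.900 CPM in libraries titled miR-145a-3p and 21.0 ± 4.45 CPM in those titled scramble (log2 -1.54 ± 0.15, edgeR adjusted p = 7.55e-05). Of 21 other immediate early genes 5 were higher and 9 lower (median -0.12), among the lower Nr4a1, an orphan nuclear receptor (log2 -0.74 ± 0.09, edgeR adjusted p = 0.000193). Of 7 messengers with AU-rich elements 2 were higher and 4 lower (median -0.21). Beside these counts, 28.1% of all genes were called higher and 28.9% lower.

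**Figure D5:**
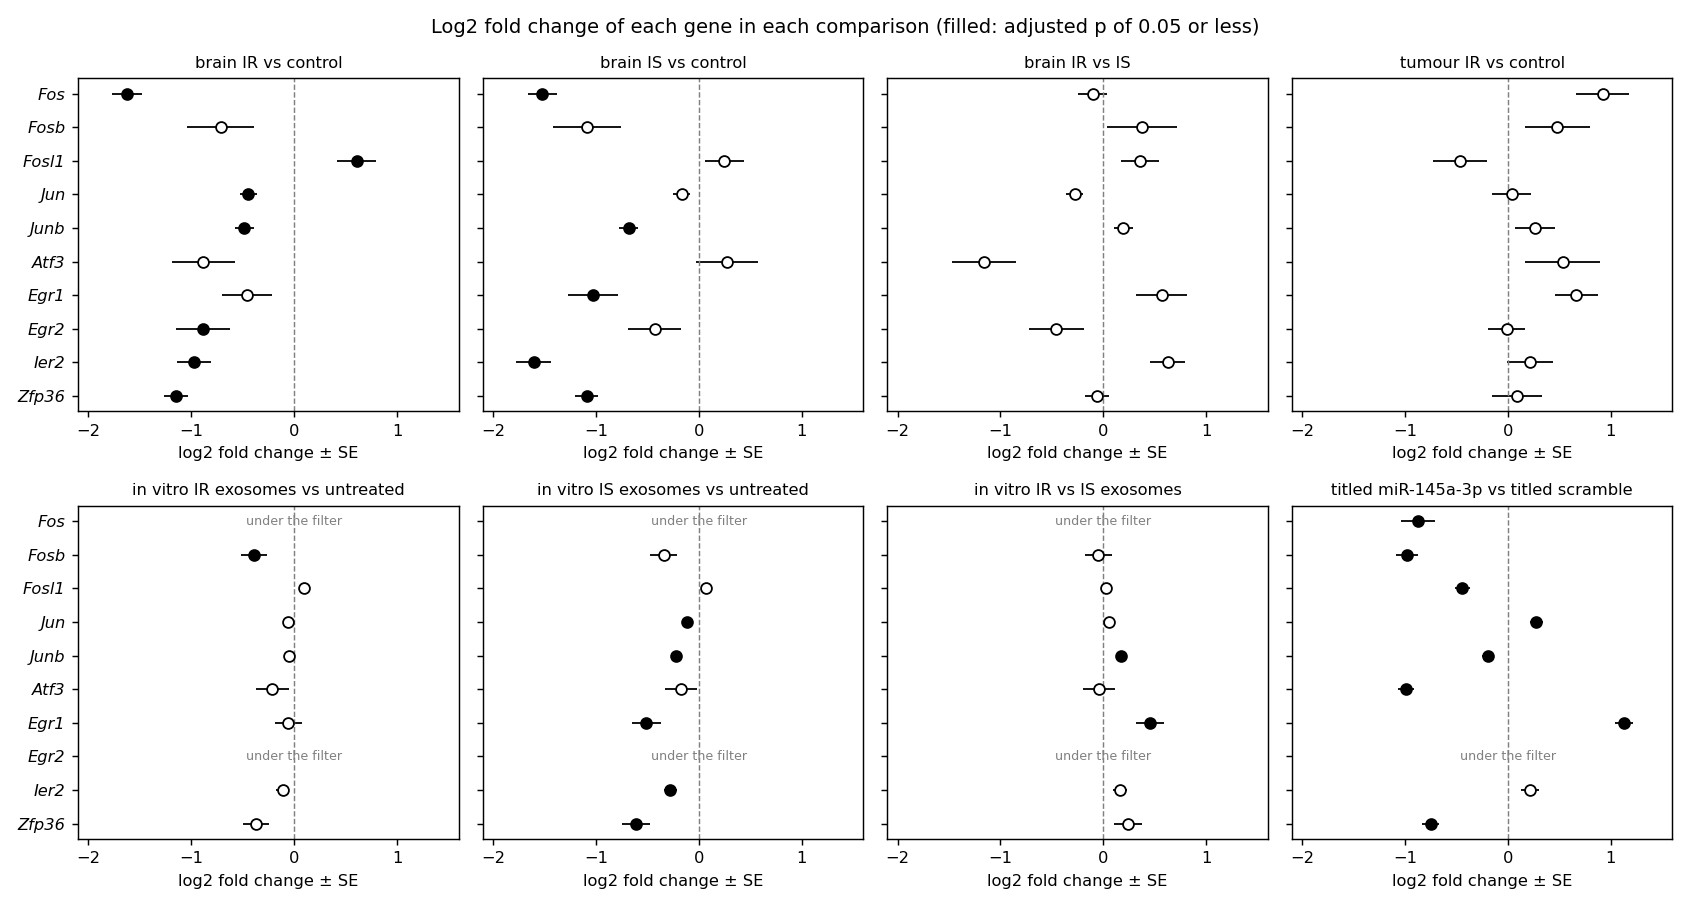
Log2 fold change of each of the 10 genes in each of the 8 comparisons (x axis), with lines for the SE; filled points are called at an adjusted p of 0.05 (edgeR). Of the genes called in the brain comparisons with the control, Fos, Zfp36 and Ier2 lie farthest below 0, at -1.63, -1.15 and -0.98 in IR and -1.52, -1.09 and -1.60 in IS, while no gene is called in the tumours.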

How the data were processed

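RNA of 38 libraries was sequenced as paired-end Illumina reads after a strand-specific poly(A) kit, per the labels' protocols, and groups were taken from the sample titles. The deposited tables hold expected counts per gene that the authors made with RSEM (exosome culture and brain) or estimated with salmon (tumour and miRNA), per the file headers, not normalised between libraries. Trimmomatic, featureCounts, STAR and DESeq2 are named in the submitters' processing notes, beside the builds GRCm38 (mm10) and GRCm39 (mm39), with no record of which build lies behind which table. Of the values, 97.8% (culture, brain), 84.4% (tumour) and 85.6% (miRNA) were whole numbers. Another 3 columns of 1 table fitted no sample label and were left out. IR columns of the culture and brain tables share their names with tumour libraries, so they were assigned to their group only and are numbered as in the column names. In the tumour table control 4 carries another number than in its title.

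Expected counts were rounded, and genes with 3 CPM in 3 or more libraries of an experiment were kept (10888, 12924, 12962 and 10751 genes in the culture, brain, tumour and miRNA tables). After TMM scaling, edgeR 4.0.16 (R 4.3.3) gave robust quasi-likelihood tests from 1 fit per experiment without covariates. Benjamini-Hochberg adjustment ran over all genes tested, and calls were made at 0.05. CPM are relative to the summed counts of tested genes times the scaling factor. The SE is the size of the log2 fold change over the square root of F. The test was tried on simulated counts drawn independently for each library, so that trial has no bearing on whether the real libraries are independent. Alternatives were DESeq2 1.42.0, upper quartile scaling, no filter, a fit of the 2 groups alone, a replicate block and each library left out. Gene symbols were matched by Ensembl identifier through the table that pairs both. Promoters came from RefSeq. Plots used Python 3.11.15 and matplotlib 3.10.9.

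The members and gene lists were chosen with earlier results of these data known. Some related lists share genes, so a call can count in more than 1 list. Ier3 is among both the early response genes and the AU-rich messengers. Fosl2, Jund and Maff are among both the early response genes and the AP-1 partners. Named genes were all 10 members, up to 3 called genes with the smallest adjusted p of each related list and comparison, of which some are given as counts only and 1 is not reported here, and the 5 genes nearest to Fos at a mean of 10 CPM or more in the brain and tumour tables (log2 CPM, prior count 2). Library pairs of a group differed beyond sampling noise (chi-square per gene at least 2.19). That value does not separate technical differences from those between animals or cultures. Each library was counted as 1 sample following the labels, and whether the libraries are independent was not tested.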

Additional observations from a re-analysis of the deposited data

Results flagged for a closer look

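Among the 50 pairs of gene and group with 4 or more libraries, 2 held a library far from the rest of its group, where chance alone gives about 1 in 20. Fos in brain control 5 was at 81.9 CPM, while the other control libraries were at 59.8 to 65.8 CPM. Jun in tumour IR 1 was at 229 CPM, while the other IR tumours were at 127 to 145 CPM.

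Fos lay on opposite sides of the control in the IR groups of the brain assay and the primary tumours, and its tumour value was not called (edgeR adjusted p = 0.456). Its log2 fold change against the control was -1.63 in the brain libraries, where every IR library was below every control library, and 0.92 in the tumours, where every IR library was above every control library, the closest at 13.84 CPM in IR 2 against 13.80 CPM in control 4. The tables were normalised separately and the difference was not tested.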

How the results depend on the processing

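Fos, Zfp36, Ier2 and Junb in both brain comparisons with the control kept their calls under every alternative run, as did Jun in IR. Leaving out a library in turn gave these ranges. In exosome culture, 0 to 1 members were called with IR and 3 to 5 with IS exosomes, and 1 to 2 between IR and IS, where 480 to 1109 genes were called. In the brain 754 to 1679 genes were called in IR, 414 to 815 in IS and 0 to 1084 between them, with 0 to 4 members. In the tumours 0 to 1 genes were called. DESeq2 called 0 members with IR exosomes, 558 genes and 1 member between IR and IS exosomes, 1219 genes in brain IS, 604 genes and 3 members between brain IR and IS, and 124 tumour genes. A fit of the 2 groups alone called 2 members with IR exosomes and 0 genes between brain IR and IS. With no filter 67 genes were called between brain IR and IS and 1 in tumours. Without tumour IR 4 and IR 5, chosen after seeing the data, 2 genes were called. The causes were not tested.

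Signs that changed belonged to uncalled values, the larger ones among them Fosl1 in brain IS (log2 0.25) and Ier2 in tumours (log2 0.22). With a library left out, log2 fold changes ran from -0.138 to 0.0501 for Egr1 with IR exosomes, and between IR and IS exosomes from -0.0969 to 0.00917 for Fosb, -0.00826 to 0.0913 for Fosl1 and -0.130 to 0.0854 for Atf3. Between brain IR and IS, Zfp36 ran from -0.151 to 0.0144. In the tumours Zfp36 ran from -0.101 to 0.326, Jun from -0.137 to 0.147 and Egr2 from -0.0836 to 0.145. Egr2 in tumours was 0.0105 with no filter, and without IR 4 and IR 5 Egr2 was 0.151 and Ier2 -0.107. Fosl1 in brain IS was -0.0234 without IS 1 and IS 2. The no filter fit shifted the median of all genes in the miRNA set by 0.123, and Junb there was then at -0.07 (adjusted p = 0.532).

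Replicate numbers were not taken to pair the samples, because not every same-numbered pair had deviations correlated above 0.1. This rule cannot exclude a pairing. In the tumours 3 pairs did (0.135, 0.758 and 0.204) and 1 did not (0.081, or -0.0544 when control 4 is matched by library name), and elsewhere correlations were -0.21 to 0.23. The pair at 0.758, control 2 and IR 2, held the tumours with the highest lymphocyte sums. In none of the 4 experiments did every sample correlate best with its own number. With a replicate block, 67 of 73 member results kept direction and call, 3 lost their call, 1 gained one and 2 changed sign (tumour Egr2 0.0958 and Ier2 -0.00352). Calls with the block were 2 members with IR exosomes, 0 genes between brain IR and IS and 20 genes in tumours, or 4 genes by library name, chosen after seeing the data, with Egr2 at 0.0304. Fos and Egr2 in exosome culture held under 25 counts a library and failed the filter, so a change in them was not tested.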
